A study of Mus musculus with 4 samples.

Results

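Closed CpG-rich promoters are the promoter windows of protein-coding genes that are dense in CpG dinucleotides yet held no open region in mouse T-helper 17 (Th17) cells. Genes of GENCODE release M21 on mm10 were ranked by the ratio of observed to expected CpG within 500 bp of a transcription start site (TSS), taking the highest value over a gene's TSSs. Those in the upper 2 of 5 equal classes were called CpG-rich, and a gene was closed when none of the 4 deposited peak lists had a region within 1 kb of any of its TSSs. The members were therefore chosen by the peak positions themselves, and their lack of a region is a description with no test. Of 8776 CpG-rich promoters 267, or 3.04%, were closed, out of 21938 protein-coding genes in all. The other CpG-rich promoters were open in all 4 lists (8363) or in 1 to 3 lists (146).

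The assay was ATAC-seq, which tags exposed DNA with the adapters of a transposase. All samples were primary Th17 cells, the helper T cells known for interleukin 17, from C57BL/6NJ mice of unknown age whose sex was not recorded. The labels give 4 biological replicates of this single group, without a control, a treatment or a second cell type. All 4 carry 1 donor identifier, so the SDs below measure the spread between these samples, which may be technical in part.

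CpG islands are stretches of DNA that escaped the loss of CpG seen over most of a mammalian genome, and they hold the start sites of most housekeeping genes and of many developmental regulators. Most island promoters tend to be free of nucleosomes across cell types, whether or not the gene is strongly transcribed. Exceptions are known: Polycomb complexes can hold the islands of lineage genes in a compact state, DNA methylation covers the islands of a set of germ cell genes in somatic cells, and imprinted genes carry a methylated and an unmethylated copy. No such mark was analysed here.

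The sequences below show what the rule selected. Each is the stretch from 250 bases before to 50 after a RefSeq start site (GRCm38.p6, gene strand, 5′ to 3′). The gene shown had the most CpGs in this stretch among its list's closed (or open) genes with a matched sequence and no repeated 50-base word. Genes without a matched sequence were not compared, so a gene shown need not be the richest in CpG of its list. Capitals mark every CpG. The table of promoter sequences matched 144 of the 267 members, and the median promoter in that table holds 7 CpGs. The 4 closed promoters shown are Grik3, a kainate glutamate receptor subunit, with 50 CpGs; Wnt3a, a secreted Wnt ligand, with 45; Ddx4, the germ cell helicase Vasa, with 38; and Cdh8, a neuronal cadherin, with 21.
Grik3 (chr4:125490446-125490745, plus strand): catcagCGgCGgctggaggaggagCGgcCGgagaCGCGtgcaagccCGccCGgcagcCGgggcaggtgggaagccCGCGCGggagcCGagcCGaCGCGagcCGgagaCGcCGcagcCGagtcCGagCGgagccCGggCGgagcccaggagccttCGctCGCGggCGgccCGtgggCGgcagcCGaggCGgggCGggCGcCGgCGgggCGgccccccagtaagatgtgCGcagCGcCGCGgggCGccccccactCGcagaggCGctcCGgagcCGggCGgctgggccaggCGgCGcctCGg
Wnt3a (chr11:59290702-59291001, minus strand): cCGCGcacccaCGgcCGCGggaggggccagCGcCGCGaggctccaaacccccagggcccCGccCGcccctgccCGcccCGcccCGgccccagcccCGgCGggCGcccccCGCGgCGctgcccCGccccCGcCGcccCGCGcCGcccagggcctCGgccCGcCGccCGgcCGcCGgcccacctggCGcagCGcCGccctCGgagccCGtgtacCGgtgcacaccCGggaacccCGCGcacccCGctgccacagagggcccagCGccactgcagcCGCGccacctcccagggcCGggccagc
Ddx4 (chr13:112652261-112652560, minus strand): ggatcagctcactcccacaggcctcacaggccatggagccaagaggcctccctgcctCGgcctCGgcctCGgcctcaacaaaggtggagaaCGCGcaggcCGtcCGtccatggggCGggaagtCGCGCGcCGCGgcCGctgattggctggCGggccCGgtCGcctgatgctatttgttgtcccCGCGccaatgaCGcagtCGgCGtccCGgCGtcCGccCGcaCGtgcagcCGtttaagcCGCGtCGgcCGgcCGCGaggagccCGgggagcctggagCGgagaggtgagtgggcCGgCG
Cdh8 (chr8:99416422-99416721, minus strand): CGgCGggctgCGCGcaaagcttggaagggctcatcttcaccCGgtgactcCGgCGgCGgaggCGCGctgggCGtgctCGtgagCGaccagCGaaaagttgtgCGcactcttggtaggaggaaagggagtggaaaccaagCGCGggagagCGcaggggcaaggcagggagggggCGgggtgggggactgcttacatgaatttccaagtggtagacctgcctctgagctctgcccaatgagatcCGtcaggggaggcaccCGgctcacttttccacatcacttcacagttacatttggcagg
Open CpG-rich promoters chosen in the same way were Runx3, a T-cell transcription factor, with 45 CpGs, and Pou4f1, a homeobox factor of sensory neurons, with 57.
Runx3 (chr4:135152295-135152594, plus strand): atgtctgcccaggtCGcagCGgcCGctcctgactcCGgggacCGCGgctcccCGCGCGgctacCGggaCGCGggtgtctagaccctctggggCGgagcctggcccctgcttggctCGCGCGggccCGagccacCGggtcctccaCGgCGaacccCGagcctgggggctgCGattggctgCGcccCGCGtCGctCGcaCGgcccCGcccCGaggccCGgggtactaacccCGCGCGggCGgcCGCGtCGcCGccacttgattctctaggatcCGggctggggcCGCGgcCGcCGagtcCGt
Pou4f1 (chr14:104467950-104468249, minus strand): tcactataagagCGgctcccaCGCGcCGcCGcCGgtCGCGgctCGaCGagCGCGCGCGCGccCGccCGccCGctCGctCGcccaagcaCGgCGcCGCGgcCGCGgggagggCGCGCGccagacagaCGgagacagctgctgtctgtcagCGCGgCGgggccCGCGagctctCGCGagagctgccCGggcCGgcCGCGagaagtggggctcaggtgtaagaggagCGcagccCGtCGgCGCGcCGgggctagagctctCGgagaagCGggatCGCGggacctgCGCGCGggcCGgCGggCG
By CpG count the closed sequences of Grik3, Wnt3a and Ddx4 lie close to that of Runx3, and Cdh8 holds fewer. The neuronal gene Pou4f1 had a region at its promoter in all 4 replicates.

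In single replicates 347, 350, 311 and 334 CpG-rich promoters (replicates 1 to 4) had no region, a mean of 335.5 ± 17.7 (SD, n = 4). The 267 members made up 79.8% ± 4.36 of each replicate's own closed set. Replicate 3 had the fewest closed promoters, and it alone supplied the single region at 18 CpG-rich promoters, against 7, 7 and 9 in replicates 1, 2 and 4. The peak names carry 1 tag for replicates 1 and 2 and another for replicates 3 and 4, and the labels do not say what the tags stand for. Closed counts were lower in both replicates of the second pair. Promoters with a region in only some lists had weak regions: their strongest region lay at the 11.2 ± 1.36 percentile of deposited signal within its list. The same median was 81.9 ± 0.442 at the open CpG-rich promoters (SD, n = 4 each). Both groups were formed by whether a region was called in each list, so this contrast is not independent of the grouping.

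Depth is unknown, since the lists hold no read counts, and each list had 84615 ± 697 regions on chromosomes 1 to 19, X and Y (SD, n = 4). The promoters of all 12 Th17 markers looked up and of 9 of 10 T-cell markers, the 1 other having no match in the annotation, were open in all 4 lists. So were 2 of 5 B-cell, 1 of 5 myeloid, 4 of 5 neuron and 1 of 5 germ cell and 1 of 4 muscle markers, and none of 4 hepatocyte markers.

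Near the distance limit the members just inside were Gm4969, an unnamed gene model, at 1029 bp from its nearest region, then Foxb1 at 1072, Foxa2 at 1112, Gm43517 at 1117 and Prmt8 at 1129 bp. Among those just outside it were Sox3 at 900 bp, Vstm2l at 893, Plxdc1 at 875 and Prex2 at 868 bp. Near the CpG limit the lowest members were Prmt8 (ratio 0.709), Mkrn3 and Cdh13 (both 0.711), Grem1 and Bmp4 (both 0.712). The closed genes just below it were Slc6a2 (0.707), Scg3, Pcdha8 and Stac (all 0.705) and St6gal2 (0.704).

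Most members were far from any open region, not just beyond the limit. The nearest region of any list lay 1 to 2 kb away for 22 members, 2 to 10 kb for 56, 10 to 50 kb for 60 and over 50 kb for 129. The median distance was 66936, 64099, 60045 and 66477 bp in replicates 1 to 4, a mean of 64389 ± 3152 bp (SD, n = 4), so the replicates placed their regions at much the same distance. More than 1 Mb of DNA without any region surrounded the TSSs of 14 members and of none of the open promoters, as the rule requires of the open ones. The 10 most isolated were Lrrtm1 (3874 kb), Slitrk4 (3089 kb), Cdh8 (2709 kb), Adgrl3 (2626 kb), Tmem47 (2486 kb), Unc5d (1812 kb), Naaladl2 (1715 kb), Htr2c (1456 kb), Mmp16 (1259 kb) and Pcdh11x (1253 kb). Lrrtm1, Slitrk4, Cdh8, Adgrl3 and Unc5d encode adhesion or guidance proteins of neurons, and Htr2c encodes a serotonin receptor.

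**Figure D1:**
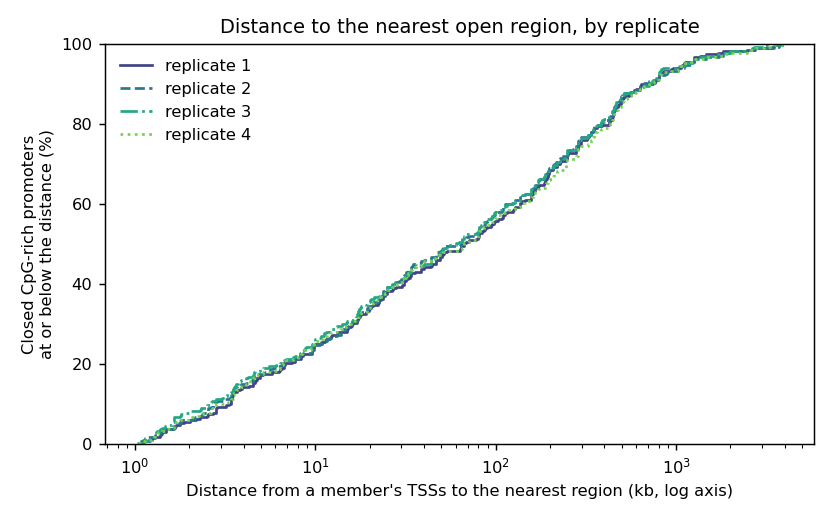
Cumulative share (%) of the 267 closed CpG-rich promoters by distance in kb (log axis) from their TSSs to the nearest region, with 1 line per replicate. The 4 lines run together from just over 1 kb to 3874 kb, with medians of 60045 to 66936 bp.

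In base composition the closed promoters were much like the open ones, apart from a slightly lower CpG ratio. The ratio, which the rule used, had a median of 0.800 in closed and 0.841 in open CpG-rich promoters. Windows of 1 kb held a median of 78 CpGs at closed and 82 at open promoters. GC content, which the rule did not use, had a median of 63.2% in closed and 63.1% in open promoters. Within the lower CpG-rich class it was 62.1% in closed and 61.2% in open promoters, and within the upper class 66.1% and 65.4%. CpG island length was taken from overlapping 200-bp windows at the promoter with at least 50% GC and a CpG ratio of 0.6. Island length had a median of 1157 bp at closed and 1165 bp at open promoters. By class it was 1058 and 1046 bp in the lower, and 1348.5 and 1291 bp in the upper. An island of at least 500 bp surrounded 264 of the 267 closed (98.9%) and 99.7% of the open promoters. Closed CpG-poor promoters, those in the 2 lowest classes, had a median GC content of 44.6% and 9 CpGs.

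The members differed widely among themselves. The highest CpG ratios were those of Gm21887 (1.23) and Gm47283 (1.22), gene models whose windows consist wholly of repeated words, followed by Bves (1.08), Tcfl5 (1.07), Shisa6 (1.05), Nudt10 and Sfrp1 (both 1.04), and Nptx2, Pcsk6 and Cntfr (all 1.03). Bves encodes a membrane protein of heart and muscle, Tcfl5 a testis transcription factor and Nptx2 a secreted synaptic pentraxin. The longest islands were at Gm43517 (2986 bp), Dio3 (2883 bp), Sox11 (2754 bp), Ptprg (2721 bp), Grik3 (2707 bp), Dchs2 (2643 bp), Cdh2 (2559 bp), Mdga2 (2534 bp), Foxb1 (2445 bp) and Hcn4 (2353 bp). At the other end, 5 members had under 45% GC. One of them, the protocadherin gene Pcdh11x, held 27 CpGs at 34.9% GC and no island by the definition above, so its ratio of 0.887 rests on few C and G bases.

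Lineage transcription factors, the classic owners of broad islands, supplied 14 members out of 164 CpG-rich genes on 4 lists (8.54%). Of these genes 136 were open in all 4 lists, so closed islands were a minority among them. Read against 3.04% over all CpG-rich promoters, these shares are descriptions of a group the rule chose, with no test. Among Hox cluster genes, which set position along the body axis, 2 of 21 were closed. Hoxa5 had its nearest region 6732, 6695, 6700 and 6713 bp away in replicates 1 to 4. Hoxc12 had its nearest at 6358, 2155, 1638 and 6331 bp, nearer in replicates 2 and 3 than in 1 and 4. Both genes sat among many regions, with 21 shared regions within 100 kb of Hoxa5 and 15 of Hoxc12, a shared region being a merged region present in all 4 lists.

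Other homeobox genes had 5 closed promoters of 76: Lmx1a, a regulator of dopamine neurons, Hmx1 of sensory organs, Irx1, Irx4 of the heart ventricle, and Cdx1 of the gut. Hmx1 had a region at 2821, 2701, 2650 and 2802 bp in replicates 1 to 4, whereas Irx1 had none of any list within 156.9 kb. Among PAX, SOX, FOX, GATA and T-box factors 5 of 43 were closed: Foxa2 of endoderm, Foxl1 of gut mesenchyme, Foxb1 of the brain, Pax7 of muscle stem cells and Sox11 of developing neurons. Foxa2 had a region 1112 bp away in replicate 2, but its nearest region in replicates 1, 3 and 4 was at 327871, 241542 and 327878 bp. Foxb1, in contrast, had one at 1087, 1072, 1222 and 1107 bp, just beyond the limit in every replicate. Sox11 was isolated in all 4, at 809196, 872333, 809256 and 809184 bp. Of 24 bHLH lineage factors 2 were closed, Ptf1a of pancreas and inhibitory neurons and Bhlhe23 of retinal neurons. Ptf1a had its nearest region at 9559, 13979, 2313 and 14123 bp, so a single region of replicate 3 set its lowest value.

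Secreted patterning ligands and their partners had 8 closed promoters of 42 (19.05%), with 30 open in all 4 lists. The Wnt branch held the ligands Wnt3a and Wnt5a, the agonist Rspo2 and the antagonist Sfrp1. The BMP branch held the ligand Bmp4, its relative Gdf10 and the antagonist Grem1. Fgf12 is listed by its FGF name, although it acts inside cells on sodium channels. Wnt3a, whose sequence is printed above, had its nearest region at 2817, 2851, 2827 and 2638 bp in replicates 1 to 4. Wnt5a lay 744117, 743993, 744094 and 744039 bp from its nearest region, and Bmp4 187370, 187341, 187285 and 187290 bp. Both stood alone in every replicate, and Sfrp1 did so too, at 125395 to 125470 bp.

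The 5 lists of neuronal and adhesion genes together supplied 27 members out of 200 CpG-rich genes (13.5%). Neurotransmitter receptor genes had 8 closed promoters of 30 (26.7%), and the other 22 were open in all 4 lists, with none in between. Among the 8 were the glutamate receptor genes Grin2a, Grin3a and Grik3, the GABA receptor subunit Gabra5, the nicotinic receptor Chrna7, the dopamine receptor Drd2 and the serotonin receptor Htr2c. Htr2c lay 1456310 to 1456320 bp from any region over the 4 replicates, and Chrna7 122.6 kb at the least. Grik3 had a region at 6804, 6908, 6842 and 6897 bp and 2 shared regions in its gene body.

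Ion channel genes, listed as voltage-gated subunits, had 8 closed of 59 (13.6%). Only Kcnd2, Kcnma1 and Hcn4 of these are gated by voltage: Kcnd2 carries the A-type potassium current, Kcnma1 is also gated by calcium, and Hcn4 carries the pacemaker current of the heart. Kcnk1, Kcnk2, Kcnk9 and Kcnk15 are leak potassium channels and Kcnj6 is an inward rectifier. Kcnk2 was 97217, 97244, 97229 and 97231 bp from its nearest region, and Kcnk15 4522, 4451, 4126 and 4018 bp. Axon guidance genes had 3 closed of 44, the netrin receptors Unc5c and Unc5d and the repellent ligand Sema3a. Genes of synapse and neuron structure had 2 of 46, the calcium sensor Syt10 and the splicing factor Rbfox1. That count depended on the rule: it was 5 with a limit of 500 bp, 7 with the TSSs of protein-coding transcripts alone and 10 when only regions with -log10 q of at least 10 counted.

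Cadherins bind cells to each other through calcium-dependent contacts. Of 21 CpG-rich cadherins and protocadherins outside the clusters 6 were closed (28.6%): Cdh2, the N-cadherin, Cdh6, Cdh8, Cdh13, Pcdh15 and Pcdh11x. Cdh2 was 1117 kb from any region and Cdh8 2726396, 2708835, 2709787 and 2726506 bp, with no region within 10 kb of either in any replicate. Clustered protocadherins, which neurons choose among by promoter, had 6 closed of 10, all from the alpha cluster on chromosome 18: Pcdha1, Pcdha2, Pcdha5, Pcdha6, Pcdha7 and Pcdha11. Their windows had 13.6% to 25.03% repeated 50-base words, so none counts as unique, and the part of repeats in this result was not tested. Their GC content of 42.5% to 47.1% was low for the set.

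Germ cell genes had 8 closed promoters of 29 (27.6%), with 20 open in all 4 lists. They were Ddx4, the meiotic chromosome gene Sycp1, the meiosis regulator Meioc, Tex11 and Fkbp6, both needed for meiosis in males, Stk31, the testis helicase D1Pas1 and the male germ cell ATP carrier Slc25a31. A region of some list lay within 10 kb of 5 of these 8, whereas this held for 1 of the 8 neurotransmitter receptor members. Over all 267 members it held for 78. Ddx4 had its nearest at 7698, 7785, 7748 and 6493 bp in replicates 1 to 4, and Meioc at 6569, 6480, 6404 and 6512 bp. Slc25a31 had one at 1493, 14150, 1470 and 1493 bp, the replicate 2 list lacking the near region. D1Pas1 was the farthest, at 217508 to 217566 bp, and Tex11 and Sycp1 lay 24.9 and 29.7 kb from their nearest region.

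Imprinted genes had 6 closed of 36 (16.7%): Nnat, Mcts2, Nap1l5, Mkrn3, Dio3 and the channel gene Kcnk9. Nnat, Mcts2 and Nap1l5 are short genes known to lie inside introns of longer hosts, and their lengths here were 2.445, 0.912 and 1.844 kb. Mcts2 had 4, 5, 5 and 5 regions 1 to 10 kb away in replicates 1 to 4, the nearest at 2500, 2501, 2500 and 2383 bp. Dio3, which encodes an enzyme that inactivates thyroid hormone, stood 93943, 93934, 93956 and 93934 bp from its nearest region. Some imprinted members thus lay among open regions and others far from them.

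The T-cell programme supplied no member: all 30 of its CpG-rich promoters were open in all 4 lists. The 9 CpG-rich B cell and myeloid genes and the 7 of hepatocyte, muscle and epithelium were open too. With 3.04% closed over all CpG-rich promoters, lists this small would hold few members or none, so these zeros single out no list. Of 11 CpG-rich interleukin, receptor and chemokine genes only Cxcl14, an epithelial chemokine, was closed, with its nearest region at 16258, 15969, 16280 and 16200 bp. Among the 77 ribosomal protein genes only Rpl10l was closed, a copy known to be expressed in testis, which lay 774.9 kb from any region. Numbered zinc finger genes had 3 closed of 136 (2.21%), namely Zfp334, Zfp541 and Zfp804a. Histone genes had 4 of 59, Hist1h2bq, Hist1h2ao, Hist1h2ap and Hist1h2br, all with 100% repeated words and all within 2 kb of a region, and collagens and laminins had 1 of 11, Col19a1. Of the 267 members 78 were on a list and 189 on none.

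**Figure D2:**
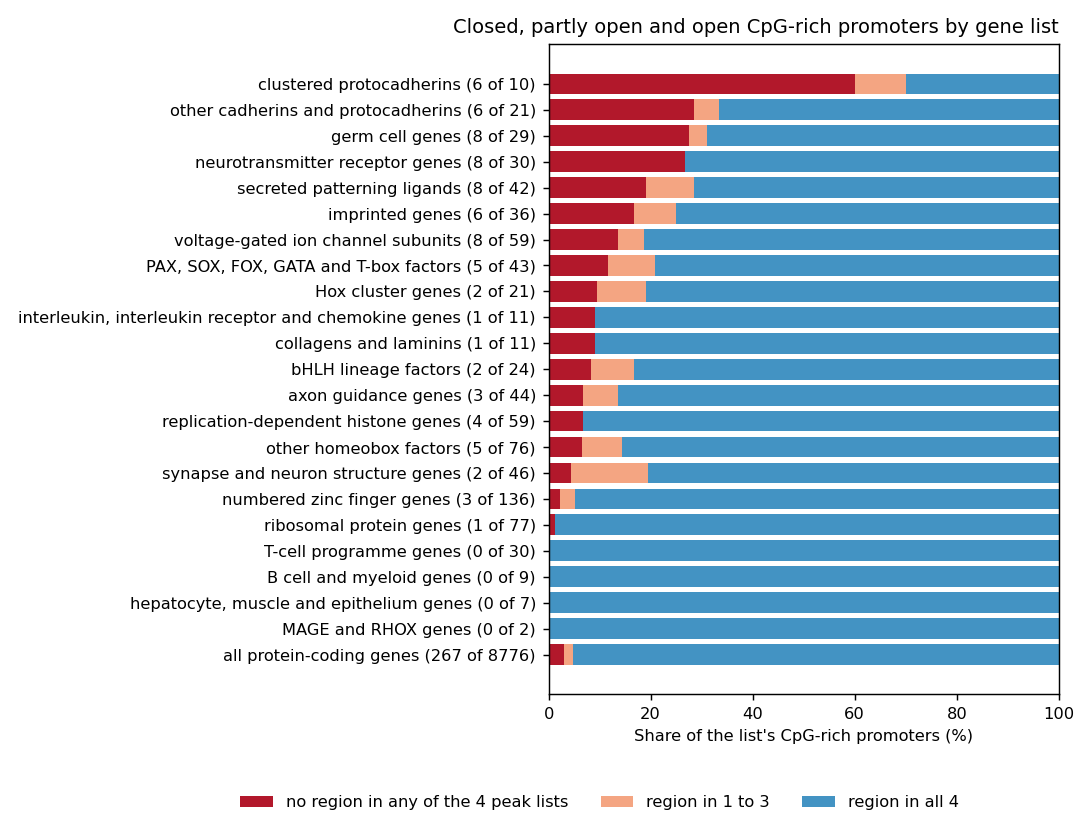
Share (%) of each list's CpG-rich promoters that were closed, partly open or open in all 4 peak lists, with the closed number and the total beside each list name. Clustered protocadherins (6 of 10) stand at the top, T-cell programme genes (0 of 30) near the bottom, and the lowest bar gives all 8776 CpG-rich promoters.

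Several gene families off the lists were noticed among the members after their values were seen, so their shares support nothing by themselves. They were counted over the whole annotation, and the 14 families together had 38 closed promoters of 80 CpG-rich ones, against 3.04% over all CpG-rich promoters. Both CSMD genes and both NELL genes that were CpG-rich were closed, Csmd1, Csmd2, Nell1 and Nell2. So were 5 of 8 SLITRK, LRRTM, LRFN and FLRT genes, 3 of 5 IgLON and MDGA genes (Opcml, Ntm and Mdga2), and 2 of 3 teneurins, Tenm2 and Tenm3. All of these encode adhesion or surface proteins of neurons apart from the secreted NELL proteins. Growth factors were represented by Ntf3, Nrg1 and Nrg3, and prohormone processing enzymes by Pcsk2, Pcsk5 and Pcsk6, 3 of 4 in each family. Receptor tyrosine phosphatases had 4 of 13, Ptprd, Ptprg, Ptprt and Ptprz1, and heparan sulfate sulfotransferases 4 of 13, Hs3st2, Hs3st4, Hs6st2 and Ndst3. The remaining families each had 2 closed members, out of 9 adhesion G-protein-coupled receptors, 7 shisa proteins, 4 TMEM132 proteins, 3 phospholipid phosphatase related proteins and 3 insulin-like growth factor binding proteins.

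Gene length was not used by the rule. Closed CpG-rich genes had a median length of 96.5 kb (quartiles 17.0 and 287.8), against 29.1 kb (12.1 and 67.0) in open CpG-rich genes and 7.63 kb in closed CpG-poor genes. Genes of 100 kb or more made up 49.8% of the closed and 15.7% of the open set. By length class 2.26% of CpG-rich promoters were closed in genes under 20 kb, 1.41% from 20 to 50 kb, 1.62% from 50 to 100 kb, 4.50% from 100 to 200 kb, 11.0% from 200 to 500 kb and 31.3% (41 of 131) from 500 kb. Among CpG-rich genes of 1000 kb or more 17 of 33 were closed. With windows of over 10% repeated words left out the shares were 1.80%, 1.00%, 1.43%, 4.33%, 10.2% and 31.3%. The median number of TSSs in closed and open CpG-rich genes was 1 and 4 under 20 kb, 3 and 5 from 20 to 50 kb, 3 and 6 from 50 to 100 kb, 4 and 6 from 100 to 200 kb, 3 and 7 from 200 to 500 kb, and 6 and 7 from 500 kb.

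The bodies of the long closed genes were nearly empty of open regions. Over the 41 closed genes of 500 kb or more there were 19 shared regions beyond 1 kb of their TSSs in 37.9 Mb, or 0.0501 per 100 kb. The 83 open CpG-rich genes of that length had 1474 in 69.5 Mb, or 2.12 per 100 kb, and the 25 closed CpG-poor genes 0.153. From 200 to 500 kb the densities were 0.202 in closed CpG-rich, 3.44 in open CpG-rich and 0.585 in closed CpG-poor genes. Under 20 kb the density was 1.28 in closed CpG-rich, 3.18 in open CpG-rich and 1.57 in closed CpG-poor genes, and from 20 to 50 kb it was 1.83, 3.99 and 1.45. A region in a gene's span can belong to another gene nested there, and density was not adjusted for the stretch within 1 kb of a TSS.

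**Figure D3:**
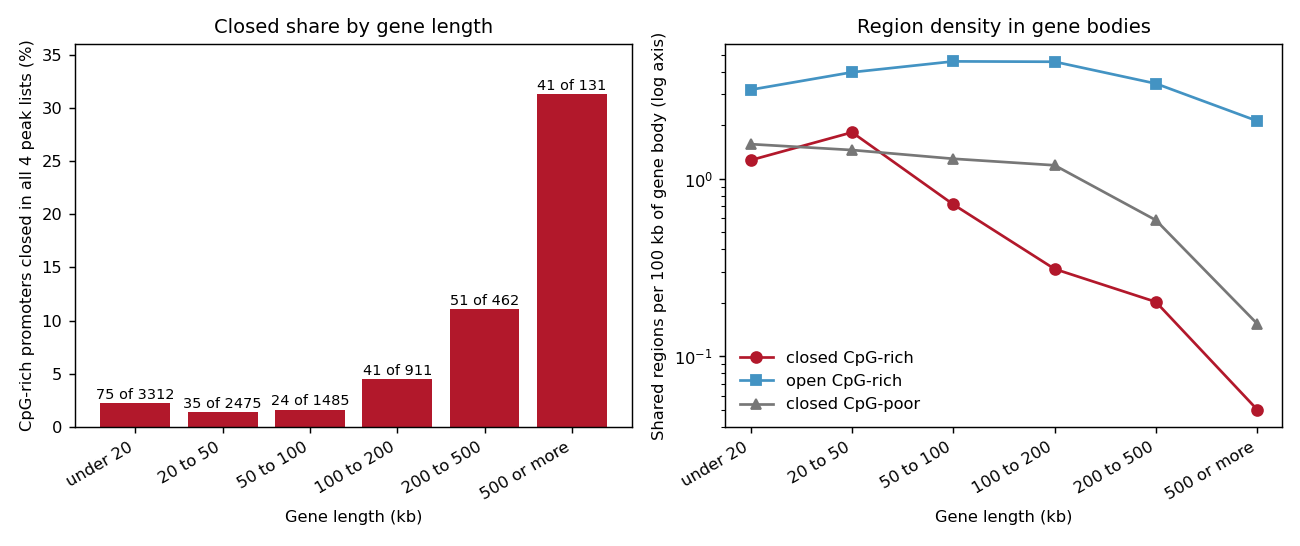
Left, share (%) of CpG-rich promoters that were closed, by gene length class in kb, with closed and total numbers over the bars. Right, shared regions per 100 kb of gene body (log axis) in closed CpG-rich, open CpG-rich and closed CpG-poor genes, where the closed CpG-rich line falls to 0.0501 in genes of 500 kb or more.

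Counted by gene, 63 of the 267 closed CpG-rich genes (23.6%) and 58.8% of the open ones had a shared region in the body. The share was 13.9% in closed CpG-poor genes, 42.5% in partly open CpG-rich genes and 41.5% over all protein-coding genes. These shares are not adjusted for gene length. The most belonged to Myo16, an unconventional myosin of neurons, with 9 in 480.8 kb. Gm47283 followed with 5, Atp2b2, Dscam and Hsf5 with 4 each, and Fgfr1op, Ndst3, Plcb1, Rbfox1, Sez6l and Unc79 with 3 each. Atp2b2 encodes a plasma membrane calcium pump and Dscam a neuronal adhesion molecule. Myo16 also had a region at 7415, 9607, 7479 and 7511 bp from a TSS in replicates 1 to 4. Rbfox1, of 1526 kb, had 3 in a longer body, and Ptprd, of 2271 kb, had none.

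Close flanks were poor in regions as well. A region 1 to 10 kb from the representative TSS, the one with the highest CpG ratio, was present at 18.73%, 19.48%, 19.101% and 18.73% of closed CpG-rich promoters in replicates 1 to 4. The mean was 19.01% ± 0.359 at closed CpG-rich promoters, 66.7% ± 0.267 at open CpG-rich promoters and 25.004% ± 0.287 at closed CpG-poor promoters (SD, n = 4 each). These SDs are between 4 lists read at the same promoters and carry no error over promoters. The order against closed CpG-poor promoters depended on the CpG rule: the share was 28.4% when only closed promoters of the highest CpG class counted. With 4 replicates no exact sign-flip test can pass a threshold of 0.05, so none was used. Among the members 43 had such a region in all 4 replicates, 58 in at least 1 and 209 in none. A region that begins within 1 kb of a TSS and reaches farther was counted as a promoter region, so the nearest part of the flank is not free of the rule.

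**Figure D4:**
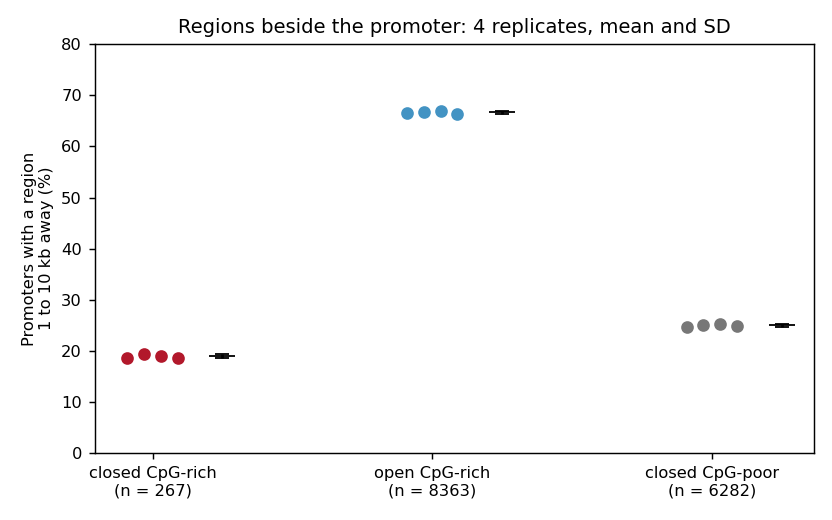
Share (%) of promoters with a region 1 to 10 kb from the representative TSS in closed CpG-rich, open CpG-rich and closed CpG-poor promoters. Each dot is 1 of 4 replicates, the bar beside them is the mean with its SD, and the closed CpG-rich dots lie at 18.73% to 19.48%.

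On a wider scale, closed CpG-rich promoters had a median of 0 shared regions within 100 kb (quartiles 0 and 3), open CpG-rich promoters 11 (7 and 16) and closed CpG-poor promoters 1 (0 and 8). No shared region lay within 100 kb of 141 closed CpG-rich promoters (52.8%), against 1.85% of open ones. The share was 44.9% at closed CpG-poor promoters, 25.3% at partly open CpG-rich promoters and 16.3% over all protein-coding promoters. Isolation on this scale was therefore not particular to the members. The genes next to a member in gene order were open in all 4 lists in 48.1% of 532 cases. The neighbours of open CpG-rich genes were open in 82.3% of cases and those of closed CpG-poor genes in 29.4%. These shares mix neighbours of all CpG classes. Among CpG-rich neighbours alone, 72.4% were open beside members, 97.1% beside open CpG-rich genes and 91.1% beside closed CpG-poor genes. The order of members and closed CpG-poor genes was thus reversed. Both neighbours were open around 63 members, and neither around 73. Members therefore lay both beside open genes and within closed stretches.

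Only 46 members stood in runs, 22 of them, in which consecutive protein-coding genes were all members. The 2 runs of 3 genes were Fam177a, Srp54b and 1700047I17Rik2 on chromosome 12, with at least 96.5% repeated words, and Rnaset2a, Gm49673 and Fgfr1op on chromosome 17, with 57.5% to 75.3%. Pairs with unique windows included Foxa2 with the somatostatin receptor gene Sstr4, 349.4 kb apart, the adhesion genes Opcml and Ntm, 1008 kb apart, and Popdc3 and Bves, of the same family, 46.5 kb apart. A promoter window was shared in part by 13 members, such as Syndig1 and C530025M09Rik with TSSs 291 bp apart, so members are not all independent regions. By chromosome the closed share ran from 0.683% (2 of 293) on chromosome 19 to 9.14% (17 of 186) on the X, leaving out the Y with 1 of 5.

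The number of annotated TSSs bears on the rule, because a gene with many starts has more places for a region. Closed genes had a median of 3 TSSs and open CpG-rich genes 5. A promoter was closed for 8.19% of CpG-rich genes with 1 TSS, 4.22% with 2 or 3, 2.15% with 4 to 7 and 1.41% with 8 or more. Annotation depth and openness cannot be told apart here.

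Among CpG-rich promoters, repeated sequence also moved with the closed state. A window was compared with the whole genome in words of 50 bases, since a read from a repeated word has no single place. Over 10% of words were repeated in 40 closed windows (14.98%) and in 3.30% of open CpG-rich ones. Of the 33 CpG-rich windows with at least 90% repeated words 21 (63.6%) were closed, among them the 4 histone genes, Entpd4, Srp54b and Cntfr. The remaining 227 members had at most 10% repeated words, and among all such CpG-rich windows 2.69% were closed. How the authors placed reads with several matches is not known from the labels, and the part of repeats in the closed state of the 40 was not tested.

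Promoter windows were searched for 14 motif strings within 500 bp of the representative TSS, on both strands. No string contains another, but the KLF/SP string shares the run GGGGCG with the CTCF string and GGCGGG with the reverse strand of the E2F string. Shares are counts of windows with at least 1 match, given as descriptions with no test. Several strings of factors known to act at active island promoters had lower shares in the closed than in the open set. The ETS string CCGGAAGT was in 3.37% of closed (9 of 267) and 12.3% of open CpG-rich windows, and in 7.53% of all protein-coding windows. YY1 (AAGATGGCG) was in 1.87% of closed (5 of 267), 7.31% of open and 3.96% of all windows, and in 0.441% (1 of 227) of the closed windows with few repeats. NRF1 (CGCATGCG) was in 3.00% of closed, 6.34% of open and 3.76% of all, and CREB/ATF (TGACGTCA) in 1.87%, 5.18% and 3.41% of the same sets. KLF/SP (GGGGCGGGG) was the most frequent string within the closed and open CpG-rich sets, in 32.6% of closed, 40.6% of open and 24.8% of all windows. E2F (TTCCCGCC) was in 8.61%, 12.8% and 7.65%, and the E-box TCACGTGA in 1.12%, 3.01% and 2.00%. The 146 partly open CpG-rich windows also had low shares: ETS, YY1 and NRF1 were each in 1.37%, CREB/ATF in 3.42% and KLF/SP in 32.2%. Low shares of these strings were therefore not particular to the closed set.

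NFY (CCAATCA) was in 13.5% of closed, 14.3% of open and 14.2% of all windows, BANP (CTCGCGAG) in 3.37%, 4.63% and 2.21%, and part of the CTCF motif (AGGGGGCGC) in 6.74%, 6.98% and 3.97%. AP-1 (TGANTCA) was in 10.1% of closed, 11.0% of open and 17.8% of all windows, and the TATA box (TATAAA) in 18.4%, 17.1% and 30.2%. The homeobox string TAATTA was in 11.99% of closed, 7.43% of open and 13.6% of all windows, but in 7.93% of the 227 closed windows with few repeats. REST half-sites (CAGCACC and GGACAG, 2 bases apart) were found in 1 closed window (0.375%), in 10 open ones (0.120%) and in 0.146% of all windows. None of the 7 strings of ETS, YY1, NRF1, CREB/ATF, NFY, KLF/SP and BANP was present in 50.6% of closed and 33.8% of open CpG-rich windows, and in 53.9% of all windows. In partly open CpG-rich windows that share was 56.2%. Both CpG classes showed the ETS difference, with 4.09% of closed and 13.3% of open windows in the lower class and 2.08% and 11.3% in the upper. A match is letters only, and no binding was measured.

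**Figure D5:**
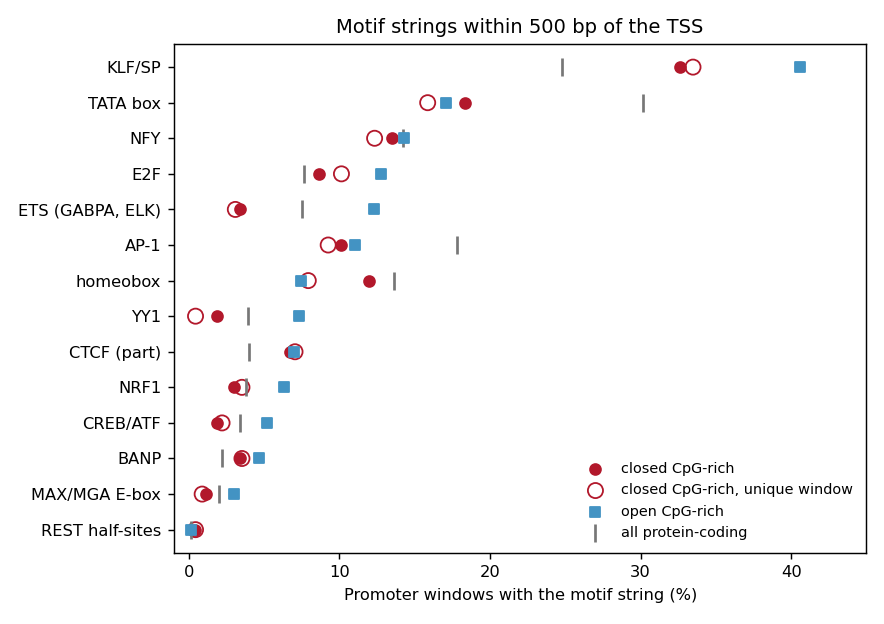
Share (%) of promoter windows holding each motif string in closed CpG-rich promoters (filled circles), those of them with few repeats (open circles), open CpG-rich promoters (squares) and all protein-coding promoters (bars). The widest relative gaps are those of ETS (3.37% closed, 12.3% open) and YY1 (1.87% closed, 7.31% open).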

How the data were processed

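The measurement used was 4 ATAC-seq peak lists, 1 per biological replicate of a single group, with coordinates on mm10 per the labels. Per the file headers, each list was derived from 1 alignment file of its replicate. Words in the peak names point to masking, duplicate removal and sorting. The names also carry a tag, a mark in hours and the words ASTARR and insert, which the labels do not explain. For the aligner and the peak caller, no name or version is given in the sources used here. The deposited signal value, made by the authors, is a fold enrichment over background, a ratio that is not normalised between replicates, and was used only as a rank within a list. The authors also deposited a -log10 p and a -log10 q for every peak, with 1.00 as the lowest -log10 q. The deposited display score was not used. The lists hold no counts, so depth is unknown and precision is the spread between the replicates.

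From these lists, with Python 3.11.15, numpy 2.4.6, pandas 2.3.3 and numba 0.67.0, each gene's distance from any TSS to the nearest region edge was computed on chromosomes 1 to 19, X and Y. Regions of the 4 lists that overlapped were merged, and those with a row from all 4 were called shared. CpG ratio, GC content and islands were read from GRCm38.p6, islands within 10 kb of the TSS. The 23 gene lists, the motif strings, the naming rule and the members were chosen with earlier results of these data known, and the added families after values were seen. Named genes are all members of a list with 12 or fewer, the 10 highest in CpG ratio, island length, regions in the body and distance, the longest runs, and those beside each threshold. Unc79 was named as well, for its tie in regions in the body. Members are not replicates, so shares and medians over them carry no p. Distances, merging, CpG ratios and repeated words were checked on simulated data. Alternatives changed the distance limit, q limit, lists required, CpG rule, TSS set, chromosomes, repeats, flank and replicates. Some genes and sequences that the naming rule selects are not reported here.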

Additional observations from a re-analysis of the deposited data

How the results depend on the processing

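The number of closed CpG-rich promoters stayed within 1.5 times 267 under 10 of the 14 other rules and was 274 to 285 with a replicate left out. It was 472 when only regions with -log10 q of at least 10 counted, 413 when every promoter not open in all 4 lists counted, 96 in the class of highest CpG ratio alone and 171 with a CpG ratio of 0.75 and 55% GC or more.

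The share with a region 1 to 10 kb away (19.01%, against 66.7% at open CpG-rich and 25.004% at closed CpG-poor promoters) moved by more than the small SD of 0.359 under most alternatives. It was 20.4% with a limit of 500 bp and 13.98% with 2 kb, 20.3% at -log10 q of 10, 20.1% allowing 1 list, 25.4% for promoters not open in all 4, and 31.0% when only a summit within 1 kb counted. It was 28.4% in the highest CpG class, which turns round the order against closed CpG-poor promoters, 21.6% with the joint CpG and GC rule, 22.1% with a CpG window of 250 bp, 20.2% with protein-coding transcripts, 20.5% with the GENCODE basic set, 19.4% on autosomes and 18.5% in windows with few repeats. The closed CpG-poor share was not recomputed under the other rules. The flank itself gave 13.015% at 1 to 5 kb and 39.8% at 1 to 50 kb, and leaving out a replicate gave 18.98% to 19.65%.

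The share with a shared region in the gene body was 23.6%, against 58.8% in open CpG-rich and 13.9% in closed CpG-poor genes. It was 25.7% with 500 bp, 21.6% with 2 kb, 25.3% allowing 1 list and 30.3% for promoters not open in all 4. By summit it was 29.3%, in the highest CpG class 19.8%, with the joint rule 25.7% and with the 250-bp window 28.4%. With protein-coding transcripts it was 25.5%, with the basic set 25.3% and with few repeats 25.6%. Regions of 2 replicates gave 28.1%, and leaving out a replicate gave 24.5% to 25.7%.

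Counts of members per list moved by over 1.5 times in 64 of 324 cases, with none of them on leaving out a replicate. At -log10 q of at least 10, other homeobox factors had 18 closed promoters instead of 5, the PAX to T-box list 10 instead of 5, secreted ligands 15 instead of 8, ion channels 15 instead of 8 and imprinted genes 12 instead of 6. With a 2 kb limit histone genes had 0 instead of 4 and the PAX to T-box list 2. With the 250-bp CpG window germ cell genes had 14 instead of 8 and clustered protocadherins 3 instead of 6, and with few repeats protocadherins and histone genes had 0. In the highest CpG class 15 of the 18 lists with a member moved, germ cell genes to 0. Neurotransmitter receptor genes stayed at 6 to 11 apart from 3 in that class.

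Median GC content was 63.5% with 500 bp and when allowing 1 list, 64.3% at -log10 q of 10, 66.1% in the highest CpG class, 64% with few repeats, and 63.2% to 63.5% with a replicate left out. Median island length was 1348.5 bp in the highest CpG class, 1169 bp with few repeats and 1150.5 to 1163 bp with a replicate left out. The median of 3 TSSs did not move under the alternatives run. With few repeats YY1 was in 0.441% and the homeobox string in 7.93% of closed windows. Why these values moved was not tested. No paired analysis was possible because the samples form a single group, and promoter sets within a replicate were compared as values only. Without read counts, a promoter with weak accessibility cannot be told from one with none.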
